A study of Mus musculus with 6 samples.

Results

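The genes described here are 10 extracellular and membrane modulators of BMP signaling, chosen by name: the secreted antagonists *Nog*, *Chrd* and *Grem1*, the follistatin family members *Fst*, *Fstl3* and *Fstl1*, the modulator *Twsg1*, the pseudoreceptor *Bambi* and the co-receptors *Rgma* and *Rgmb*. All 10 are among the 55809 genes counted. HC11, a mouse mammary epithelial cell line, was cultured in medium with BMP7 (BMP7, 3 libraries) or without it (Ctrl, 3 libraries), and poly(A) RNA was sequenced, to look for factors that luminal cells make under BMP7. HC11 is 1 line, and the study used it as a luminal line. The methods describe starved HC11 cells given BMP7 for a short or a longer time, and do not say which was sequenced. Nothing in the labels says whether libraries came from separate cultures, so p-values measure the spread between these libraries, which may be technical.

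BMPs are secreted ligands that bring type I and type II serine/threonine kinase receptors together, after which SMAD1, SMAD5 and SMAD9 are phosphorylated and enter the nucleus. Noggin, chordin and gremlin bind BMPs outside the cell and keep them from their receptors, whereas follistatin is best known for neutralizing activins. BAMBI resembles a type I receptor without a kinase domain, and the repulsive guidance molecules (RGMs) are membrane-anchored proteins that bind BMPs and the receptor neogenin. In the mammary gland, BMP signaling and its antagonists are known from the embryonic bud and from the adult epithelium.

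Between 14607938 and 23748970 fragments were counted per library. BMP7 libraries are named here 1, 3 and 4, after their columns. Of 10 mammary epithelial markers, the basal keratins *Krt5* and *Krt14* were the most abundant (*Krt14* up to 5251 CPM, counts scaled to a common library size), while the luminal keratins *Krt8* and *Krt18* were at 57.8 to 68.8 and 27.0 to 51.1 CPM and *Krt19* had 15 fragments in all libraries together. Of the 9 epithelial markers tested, *Krt14* and *Trp63* were called higher with BMP7 and *Epcam*, *Cdh1* and *Krt18* lower, and the summed level did not overlap (8056 to 8206 CPM in Ctrl, 8499.6 to 9834 with BMP7). The libraries also differed in genes of other cell types. The summed CPM of 12 adipocyte markers was 25.9 to 37.3 in Ctrl and 40.3 in BMP7 replicate 1, but 109.8 and 95.7 in BMP7 replicates 3 and 4. Of the 9 adipocyte markers tested, 8 were called higher and 0 lower. The summed CPM of 12 macrophage markers was 50.1 to 54.4 in Ctrl, 53.0 in BMP7 replicate 1, and 27.9 and 26.6 in BMP7 replicates 3 and 4. Most of that fall was *Lyz2*, at 25.5 to 26.6 CPM in Ctrl and at 6.75 and 6.93 in BMP7 replicates 3 and 4. Of the 9 tested, *Lyz2* and *Ptprc* were called lower. In BMP7 replicates 3 and 4, *Adgre1*, *Csf1r*, *Tyrobp* and *Fcer1g* also lay below Ctrl, while *Cd68* and *Cd74* lay above it. Summed fibroblast markers (10 genes) overlapped (119 to 129 CPM in Ctrl, 108 to 126 in the BMP7 libraries), a sum made up mostly of *Col1a1* and *Pdgfra*. Of the 8 tested, *Col1a1* was called lower and *Col1a2*, *Col3a1*, *Dcn* and *Dpt* higher. Across all 15733 genes tested, 11.4% were called, 5.99% higher and 5.38% lower. *Dpt*, which spanned 0.195 to 0.529 CPM in Ctrl, was measured at 0.278 CPM in BMP7 replicate 1 but at 2.40 CPM in replicate 3 and 1.98 CPM in replicate 4, and *Dcn* was at 1.74, 4.44 and 4.90 CPM in these libraries against 0.736 to 1.73 in Ctrl. Summed endothelial markers (8 genes) were 13.4 to 16.1 and 24.1 to 26.3 CPM, nearly all of it *Pecam1*. *Pecam1*, the only endothelial marker tested, was called higher (log2 fold change 0.77, edgeR adjusted p = 3.32e-05). No marker on these lists was at 0 in all 6 libraries. The part of other cell types in the results below was not tested, and the tested members are given with all libraries and with BMP7 replicate 1 as the lone treated library.

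Of the 10 genes, 9 passed the filter on low counts and were tested (quasi-likelihood test of edgeR, with p-values adjusted by Benjamini-Hochberg across the whole table), and *Grem1* was not. *Nog* was 5.6-fold higher with BMP7, while *Bambi* rose by a log2 fold change of 0.57 and *Rgma* by 0.33. *Chrd* fell to under its Ctrl level in every BMP7 library. *Fst*, *Fstl3*, *Fstl1*, *Twsg1* and *Rgmb* were not past the thresholds, which asked for an adjusted p below 0.05 together with a 1.2-fold difference. The 4 genes called of 9 tested (44.4%) stand beside 11.4% of all 15733 genes tested, 5.99% higher and 5.38% lower. DESeq2 at the same thresholds called the same 3 genes higher and *Chrd* lower, beside 5.89% and 4.7% of all genes. Over the 9 genes the median log2 fold change was 0.22, against -0.01 over all genes tested. The genes of this group were picked with earlier results of these data known, so the share describes them and is no test. *Nog*, among those called, entered the test only through its BMP7 libraries. With library totals alone in place of TMM scaling, the calls over all genes were 718 higher and 1474 lower, instead of 942 and 846. The groups did not overlap for 6 of the 9 genes, 5 higher and 1 lower with BMP7, beside 29.8% of all genes tested. In each of these 6 the exact permutation test gave a two-sided p of 0.1, the smallest that 3 libraries against 3 allow.

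**Figure D1:**
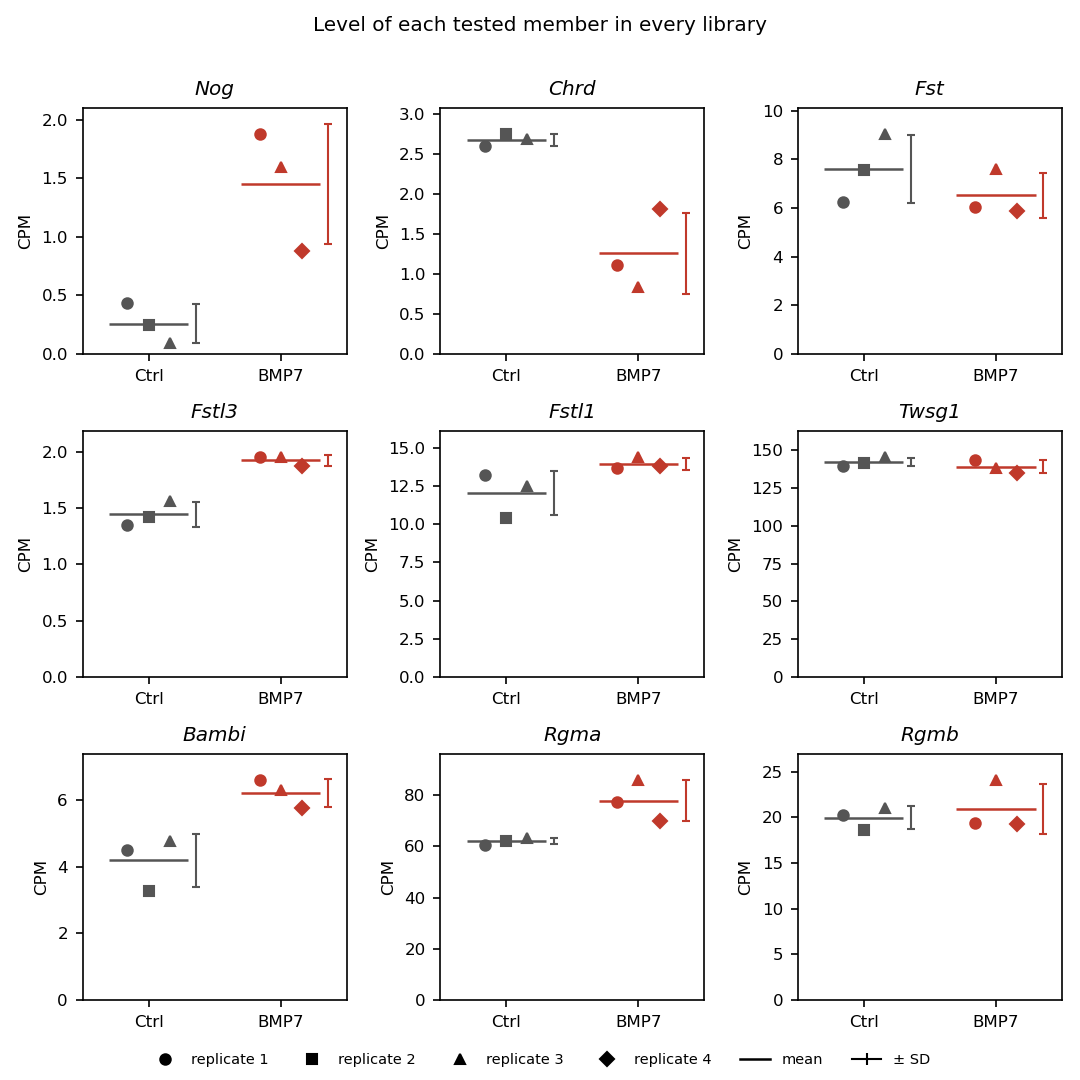
CPM of the 9 tested genes (y axes, each from 0) in the 3 Ctrl and 3 BMP7 libraries, with a symbol for each replicate, the mean as a line and the SD as a bar. *Nog*, *Bambi* and *Rgma* lie higher and *Chrd* lower in all BMP7 libraries, while *Fst*, *Twsg1* and *Rgmb* overlap.

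*Nog* encodes noggin, which binds BMP dimers and covers their receptor contacts. It is a single-exon gene on chromosome 11 of the mm39 annotation, minus strand, from 89191464 to 89193158. It had 9, 5 and 2 fragments in Ctrl replicates 1, 2 and 3, and 27, 36 and 16 in BMP7 replicates 1, 3 and 4. In CPM these were 0.433, 0.245 and 0.0977 against 1.88, 1.60 and 0.880. The groups did not overlap, and BMP7 replicate 4 was the lowest of the treated libraries. In bulk RNA, more cells with the transcript and more transcript per cell cannot be told apart. The log2 fold change was 2.45 (standard error 0.49, 95% interval 1.41 to 3.48, edgeR adjusted p = 0.00249), rank 39 of 15733 by size of the rise. From the pooled fragments alone, 16 against 79, the ratio after scaling was 5.53 with an exact binomial 95% interval of 3.20 to 10.1, which covers counting error only. *Nog* passed the filter through its BMP7 libraries, since all Ctrl libraries were under 10 fragments. It stayed past the thresholds in all 6 fits that each left out 1 library, with log2 fold changes from 2.07 to 3.03. Leaving out libraries does not change that *Nog* entered through its high group, so these fits are no separate support for the rise. Against Ctrl, BMP7 replicate 1 alone gave 2.83 (edgeR adjusted p = 0.0179), on the assumption that the lone library varies like the Ctrl libraries.

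*Chrd* encodes chordin, a large BMP-binding protein that tolloid proteases cleave to release the ligand. It lies on chromosome 16, plus strand, from 20551877 to 20561134. Ctrl replicates 1, 2 and 3 held 54, 56 and 55 fragments, and BMP7 replicates 1, 3 and 4 held 16, 19 and 33. The Ctrl libraries sat between 2.60 and 2.75 CPM, and the BMP7 libraries were at 1.11, 0.843 and 1.82. All BMP7 libraries lay below all Ctrl libraries, and the treated ones spread more widely (SD 0.502 against 0.0765 CPM, n = 3 each). The Ctrl counts lie closer together than counting error alone would give on average, and the difference in spread was not tested. The log2 fold change was -1.10 (standard error 0.29, 95% interval -1.72 to -0.48, edgeR adjusted p = 0.0180). It stayed negative in every fit that left out libraries, but was no longer past the thresholds without Ctrl replicate 2 (-1.08, edgeR adjusted p = 0.0695), without BMP7 replicate 3 (-0.84, edgeR adjusted p = 0.0999) or without both BMP7 replicates 3 and 4 (-1.26, edgeR adjusted p = 0.0591). Of its exon bases, 3.82% are shared with *Thpo* on the other strand, where fragments could not be assigned.

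*Grem1*, on chromosome 2 from 113576509 to 113588991, encodes the DAN family antagonist gremlin 1, which is known from fibroblasts and limb mesenchyme. No fragment was counted in any of the 6 libraries. A count of 0 allows up to 3 fragments, that is 0.133 to 0.209 CPM depending on the library, so expression above that was not detected. *Grem1* had no fragments here and *Chrd* was lower with BMP7. Their opening stretches are shown because, of the secreted antagonists *Nog*, *Chrd* and *Grem1*, these have a promoter in the RefSeq table used. Both are on GRCm38.p6, 5′ to 3′ on the gene's strand, from 250 bases before to 50 after the start, with GGCGCC in capitals, a GC-rich sequence of the kind that SMAD1 and SMAD5 bind.
Chrd, chr16:20732877-20733176, plus strand: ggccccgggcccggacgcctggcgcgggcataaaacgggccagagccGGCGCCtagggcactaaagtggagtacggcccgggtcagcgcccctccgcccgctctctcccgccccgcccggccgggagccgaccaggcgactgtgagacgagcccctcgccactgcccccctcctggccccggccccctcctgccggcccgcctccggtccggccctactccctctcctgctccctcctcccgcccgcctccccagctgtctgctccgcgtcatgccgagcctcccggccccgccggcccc
Grem1, chr2:113758599-113758898, minus strand: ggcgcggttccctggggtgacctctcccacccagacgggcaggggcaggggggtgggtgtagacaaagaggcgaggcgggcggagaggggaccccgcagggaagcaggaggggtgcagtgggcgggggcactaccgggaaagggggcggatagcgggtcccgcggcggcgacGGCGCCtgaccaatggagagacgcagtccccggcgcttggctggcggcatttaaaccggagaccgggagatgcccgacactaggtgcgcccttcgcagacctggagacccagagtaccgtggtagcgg
GGCGCC begins 203 bases before the start of *Chrd* and 78 bases before that of *Grem1*. It reads the same on both strands and stands in 11.9% of all 32851 windows of this length in the table, while G and C make up 78.3% and 70.7% of these stretches. Neither stretch held GTCTAGAC, the palindromic SMAD box (0.213% of windows), or a longer bipartite SMAD motif (0.244%), on either strand. Among other members, the windows of *Fstl1*, *Fstl3* and *Twsg1* held no GGCGCC, and *Rgmb* held it in only some of its windows. All these matches describe letters only.

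Set side by side, the Ctrl libraries held less *Nog* than *Chrd* per exon length, and the BMP7 libraries more. The ratio of *Nog* to *Chrd* in RPKM (CPM per kilobase of exon) was 0.615, 0.330 and 0.134 in Ctrl replicates 1, 2 and 3, and 6.23, 6.995 and 1.79 in BMP7 replicates 1, 3 and 4. The mean log2 ratio differed by 3.27 between the groups (exact permutation test, two-sided p = 0.1, 0.125 with Benjamini-Hochberg adjustment over 5 ratios). Because *Nog* was higher and *Chrd* lower in every BMP7 library, that p was fixed in advance and adds no support. The difference joins 2 genes that were each called in opposite directions, and both are low, with the ratio resting on 2 to 56 fragments per gene and library. Their summed level was 0.487 to 0.670 RPKM in Ctrl and 0.809 to 1.29 with BMP7.

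**Figure D2:**
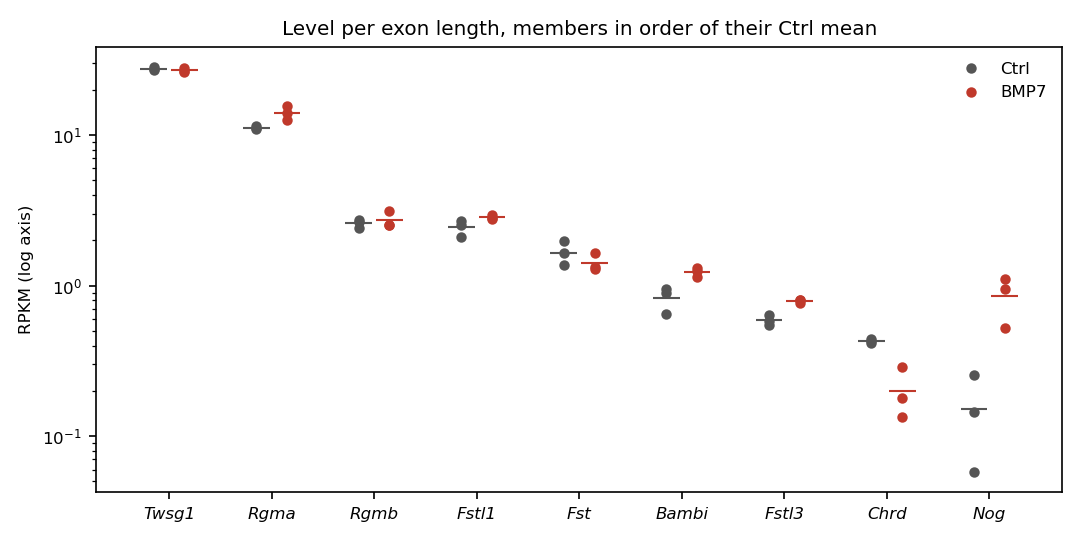
RPKM on a log axis of 9 genes (*Grem1*, at 0, is left out) in order of their Ctrl mean, with a point for each library and the group mean as a line. *Twsg1* and *Rgma* lie far above the rest, and *Nog* and *Chrd* trade places between Ctrl and BMP7.

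The levels of the 10 genes spanned a wide range per exon length. *Twsg1* was highest, at 27.6 ± 0.572 RPKM in Ctrl and 27.0 ± 0.849 with BMP7 (SD, n = 3 each), followed by *Rgma* at 11.2 ± 0.245 and 14.0 ± 1.43. *Twsg1* alone made up 50.5% to 58.8% of the summed RPKM of the group in the 6 libraries, and *Rgma* 23.4% to 29.2%. In Ctrl the order then ran *Rgmb* (2.61), *Fstl1* (2.44), *Fst* (1.66), *Bambi* (0.827), *Fstl3* (0.591), *Chrd* (0.428), *Nog* (0.153) and *Grem1* (0 RPKM). Only *Rgmb* and *Fstl1* overlapped as neighbours in Ctrl. With BMP7 *Nog* stood seventh at 0.857 RPKM, overlapping *Fstl3* (0.787), and *Chrd* was the lowest of the genes with fragments at 0.201. The neighbours *Fstl1* and *Rgmb*, and *Fst* and *Bambi*, overlapped there too. Where *Fstl3* stands in both orders is uncertain. Fragments touching the 47.3% of its exon bases shared with *Prss57* were not assigned.

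*Fst* encodes follistatin, which binds activin almost irreversibly and BMPs more weakly. It lies on chromosome 13, minus strand, from 114588826 to 114595487. Ctrl replicates 1, 2 and 3 were at 6.25, 7.56 and 9.04 CPM, and BMP7 replicates 1, 3 and 4 at 6.06, 7.59 and 5.89. The groups overlapped, with BMP7 replicate 3 above Ctrl replicates 1 and 2. The log2 fold change was -0.21 (95% interval -0.56 to 0.13, edgeR adjusted p = 0.448), so a fall of up to 0.56 or a small rise remains within the error. The value moved with single libraries, to -0.07 without Ctrl replicate 3, -0.34 without Ctrl replicate 1 and -0.35 without BMP7 replicate 3, and BMP7 replicate 1 alone gave -0.33.

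*Inhba*, not a member of the group, encodes the activin A subunit that follistatin binds, and it is the factor the study followed up. It rose from 62.2 ± 11.9 to 102.7 ± 9.28 CPM (SD, n = 3 each, edgeR adjusted p = 0.000129). The ratio of *Fst* to *Inhba* in RPKM was therefore computed within each library. It was 0.150, 0.139 and 0.238 in Ctrl replicates 1, 2 and 3, and 0.0877, 0.0933 and 0.0831 in BMP7 replicates 1, 3 and 4. All BMP7 libraries lay below all Ctrl libraries and close to each other, while Ctrl replicate 3 stood above the other Ctrl libraries. The mean log2 ratio was 0.95 lower with BMP7, 0.518 times the Ctrl ratio (exact permutation test, two-sided p = 0.1, 0.125 with adjustment over 5 ratios). Without Ctrl replicate 3 the difference was -0.71, and with BMP7 replicate 1 alone it was -0.95 (exact permutation p = 0.5, with 0.25 the smallest that 1 library against 3 allows). *Inhba* was past the thresholds there too, at a log2 fold change of 0.63 (edgeR adjusted p = 0.0108). For *Fstl3* and *Inhba* the groups overlapped in the same ratio, with a difference of -0.33 (exact permutation p = 0.2, adjusted 0.2). Most of the *Fst* to *Inhba* difference came from *Inhba*, with a log2 fold change of 0.73, while *Fst* was not called (-0.21). The study had picked *Inhba* from ligand genes that rose with BMP7 in its RNA sequencing. *Inhbb*, another activin subunit gene, went the other way, from 51.1 ± 3.15 to 34.4 ± 2.06 CPM (SD, n = 3 each). A ratio of *Fst* to both subunits together was not computed, so the fall holds for *Inhba* as the denominator only. The ratio compares transcripts and does not measure free protein.

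**Figure D3:**
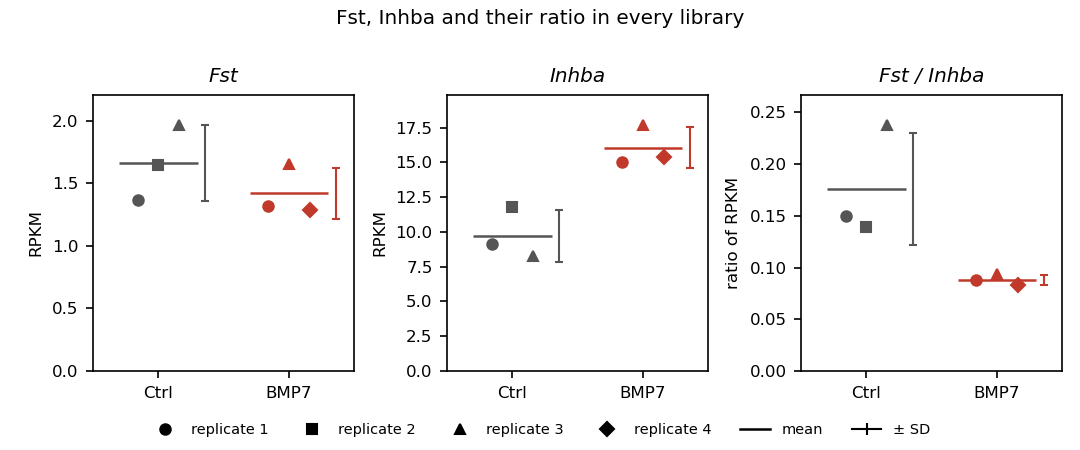
RPKM of *Fst* and *Inhba* and their ratio (y axes from 0) in each Ctrl and BMP7 library, with the mean as a line and the SD as a bar. *Fst* overlaps between the groups, *Inhba* is higher in all BMP7 libraries, and the ratio lies at 0.0831 to 0.0933 with BMP7 and 0.139 to 0.238 in Ctrl.

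*Fstl3* encodes a secreted relative of follistatin that also binds activins and myostatin. It lies on chromosome 10, plus strand, from 79613106 to 79618464. It was measured at 1.35, 1.42 and 1.56 CPM in Ctrl and at 1.95, 1.95 and 1.87 with BMP7. The groups did not overlap, but with 28 to 44 fragments per library the log2 fold change of 0.41 was not past the threshold (95% interval -0.15 to 0.98, edgeR adjusted p = 0.357), and BMP7 replicate 1 alone gave 0.43. Of its exon bases, 47.3% are shared with *Prss57* on the other strand, and fragments that touched them were not assigned to either gene, so its level is uncertain.

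*Fstl1* encodes a secreted glycoprotein of mesenchymal cells that carries a follistatin-like domain. It lies on chromosome 16 from 37597235 to 37656876. It was at 13.2, 10.4 and 12.5 CPM in Ctrl and at 13.6, 14.4 and 13.8 with BMP7. The BMP7 libraries lay just above the Ctrl libraries, by a log2 fold change of 0.22 (95% interval -0.03 to 0.46, edgeR adjusted p = 0.248). It was 0.12 without Ctrl replicate 2, the lowest Ctrl library, and 0.18 from BMP7 replicate 1 alone. Stretches of its transcripts matched transcripts of 11 other genes at 95% identity or more, and fragments mapping to several places were not counted, so its level is uncertain.

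*Twsg1* encodes twisted gastrulation, which binds both BMPs and chordin and can act for or against the ligand. It lies on chromosome 17, minus strand, from 66228967 to 66258221. It was at 139.8, 141 and 145.5 CPM in Ctrl and at 143.7, 138 and 135 with BMP7, and the groups overlapped. With 2064 to 3117 fragments per library it was the most precisely measured gene of the group, and its log2 fold change of -0.03 had a 95% interval of -0.16 to 0.09 (edgeR adjusted p = 0.772). BMP7 replicate 1 alone gave 0.02. The interval lies within the fold change of 1.2 used as a threshold on both sides.

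*Bambi*, on chromosome 18 from 3507923 to 3516404, encodes the pseudoreceptor that takes up places in receptor complexes without signaling. It was at 4.52, 3.29 and 4.79 CPM in Ctrl replicates 1, 2 and 3 and at 6.61, 6.30 and 5.78 in BMP7 replicates 1, 3 and 4. All 3 treated libraries exceeded the highest Ctrl library. The log2 fold change was 0.57 (standard error 0.17, 95% interval 0.20 to 0.93, edgeR adjusted p = 0.0394). With 1 library left out at a time, it stayed past the thresholds only without Ctrl replicate 3 (edgeR adjusted p = 0.0418). The adjusted p was 0.0665 without Ctrl replicate 1, 0.173 without Ctrl replicate 2, 0.0848 without BMP7 replicate 1, 0.106 without BMP7 replicate 3 and 0.0504 without BMP7 replicate 4, all from edgeR. The log2 fold change ranged from 0.42 to 0.67 over these fits, and BMP7 replicate 1 alone against Ctrl gave 0.66 (edgeR adjusted p = 0.129). Scaled by library totals alone it was 0.49 (edgeR adjusted p = 0.0645). Relative to *Bmpr1a*, the type I receptor that the study knocked down, the log2 ratio of *Bambi* was 0.41 higher with BMP7 (exact permutation p = 0.1, adjusted 0.125), at 0.0246 to 0.0344 in Ctrl and 0.0379 to 0.0462 with BMP7 on the RPKM scale.

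*Rgma* and *Rgmb* encode the RGM co-receptors, of which the former was called higher and the latter was not called. *Rgma*, on chromosome 7 from 73025257 to 73069647, was at 60.7, 62.2 and 63.4 CPM in Ctrl and at 77.5, 86.0 and 70.1 in BMP7 replicates 1, 3 and 4. All BMP7 libraries lay above the narrow Ctrl range. The log2 fold change was 0.33 (standard error 0.07, 95% interval 0.17 to 0.48, edgeR adjusted p = 0.00673), a 1.25-fold rise in the mean. Without BMP7 replicate 3, the highest library, it was 0.25 (edgeR adjusted p = 0.0466), under the fold threshold, and from BMP7 replicate 1 alone it was 0.32 (edgeR adjusted p = 0.0278). Library totals alone also gave 0.25 (edgeR adjusted p = 0.0220). A share of 4.65% of its exon bases overlaps *A730056A06Rik* on the other strand.

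*Rgmb*, on chromosome 17, minus strand, from 16023450 to 16051301, was at 20.3, 18.6 and 21.1 CPM in Ctrl and at 19.4, 24.1 and 19.3 with BMP7. The groups overlapped, and the highest treated library was again BMP7 replicate 3. Its log2 fold change was 0.07 (95% interval -0.15 to 0.29, edgeR adjusted p = 0.712), and its sign turned without BMP7 replicate 3 (-0.05) and from BMP7 replicate 1 alone (-0.04). The ratio of *Rgma* to *Rgmb* in RPKM was 4.14, 4.63 and 4.17 in Ctrl and 5.54, 4.93 and 5.02 with BMP7, without overlap. The mean log2 ratio was 0.26 higher with BMP7 (exact permutation p = 0.1, adjusted 0.125 over 5 ratios). *Neo1*, which encodes neogenin, the receptor that both RGM proteins bind, was abundant at 289.6 ± 10.3 CPM in Ctrl and 345.1 ± 22.8 with BMP7 (SD, n = 3 each). It passed by adjusted p (0.0140 from edgeR) with a log2 fold change of 0.25, under the fold threshold, and from BMP7 replicate 1 alone it was at 0.14 (edgeR adjusted p = 0.287).

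**Figure D4:**
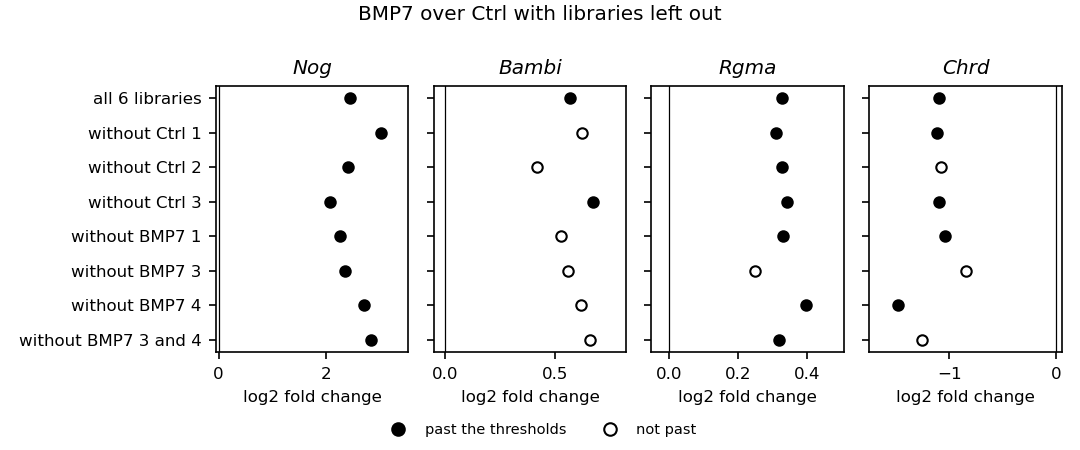
Log2 fold change of the 4 called genes (x axes) with all 6 libraries and with libraries left out (rows), filled where past both thresholds in edgeR. *Nog* stays past them throughout, *Rgma* loses the call without BMP7 replicate 3, *Chrd* without Ctrl replicate 2, BMP7 replicate 3 or both BMP7 replicates 3 and 4, and *Bambi* in all of these fits but the one without Ctrl replicate 3.

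A list of 30 other extracellular modulators was read beside the group. Of these, 15 were tested, and 5 were higher and 1 lower (40%, beside 11.4% of all 15733 genes tested). The median log2 fold change was 0.24. The other 15 had at most 24 fragments over the 6 libraries, and 7 of them had none. *Sostdc1*, which encodes a secreted antagonist of BMP and WNT signaling known from the mammary bud and teeth, was at 34.6, 33.5 and 42.3 CPM in Ctrl and at 192, 228 and 169 in BMP7 replicates 1, 3 and 4. All treated libraries lay far above Ctrl, by a log2 fold change of 2.42 (standard error 0.11, edgeR adjusted p = 1.06e-10). Its fold was close to that of *Nog*, but per exon length it stood 97.1 to 183 times above *Nog* in the BMP7 libraries, at 110.3 against 0.857 RPKM.

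The matricellular BMP modulators *Smoc1* and *Smoc2* rose as well on the log2 scale, by 0.91 (edgeR adjusted p = 8.14e-08) and 2.01 (edgeR adjusted p = 5.41e-05). *Smoc2* was low, between 0.817 and 1.27 CPM in Ctrl and between 3.41 and 5.08 with BMP7. *Tmeff1*, a membrane protein with follistatin-like modules, had a log2 fold change of 0.41 (edgeR adjusted p = 0.000623), and the serine protease *Htra1* one of 0.39 (edgeR adjusted p = 0.00216). *Tgfbr3*, which encodes the co-receptor betaglycan, was the lower one, with a log2 fold change of -1.22 (edgeR adjusted p = 0.00265). *Bmp1*, the protease that cleaves chordin, was at 114 ± 1.88 CPM in Ctrl and 118 ± 0.779 with BMP7 (SD, n = 3 each), with an adjusted p of 0.667 from edgeR. *Chrdl1*, a relative of *Chrd*, had a log2 fold change of -0.22 (95% interval -0.47 to 0.02, edgeR adjusted p = 0.245). From BMP7 replicate 1 alone *Sostdc1* (2.38), *Smoc2* (2.33), *Smoc1* (0.89), *Htra1* (0.55), *Tmeff1* (0.44) and *Tgfbr3* (-1.77) were past the thresholds as well.

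**Figure D5:**
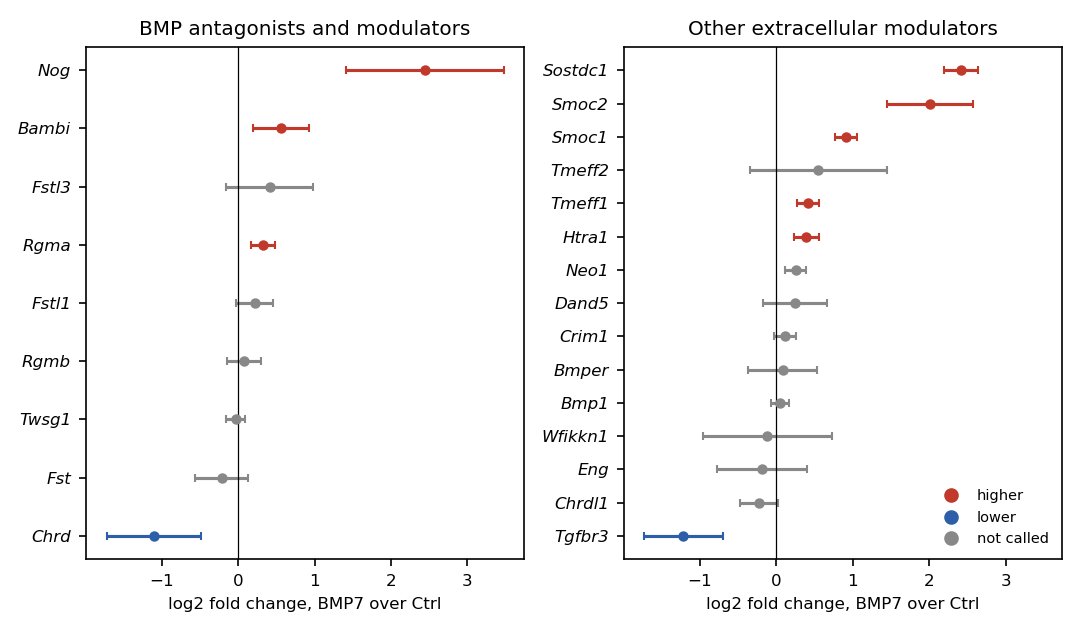
Log2 fold change of BMP7 over Ctrl (x axes) with 95% intervals from edgeR, for the 9 tested BMP antagonists and modulators and for 15 other extracellular modulators. *Nog*, *Sostdc1* and *Smoc2* stand at the top of the lists, and *Chrd* and *Tgfbr3* at the bottom.

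Most BMP and GDF ligand genes were scarce as transcripts. Of 20 BMP and GDF genes, 7 had no fragment, 11 had at most 24 over the 6 libraries, and only *Bmp7* and *Gdf11* were tested, neither past the thresholds. *Bmp7* itself spanned 9.42 to 11.7 CPM without BMP7 and 7.76 to 8.48 CPM with it, with a log2 fold change of -0.36 (edgeR adjusted p = 0.0789). Of the activin and inhibin subunits, *Inhba* rose by 0.73 and *Inhbb* fell by 0.57 on the log2 scale (edgeR adjusted p = 5.48e-05). Of 9 receptors, 6 were tested and *Acvr1* was the 1 called, at a log2 fold change of 0.67 (edgeR adjusted p = 1.25e-05). That is 16.7% of the receptors tested, near the 11.4% of all genes tested. Of 19 intracellular inhibitors and targets, all were tested and 16 were higher (84.2%, beside 5.99% of all genes tested), with a median log2 fold change of 1.29. In this list the 6 largest were *Atoh8* (6.38), *Id3* (6.31), *Id1* (4.28), *Smad9* (3.91), *Id2* (2.82) and *Smad7* (2.81). Like *Nog*, *Atoh8* and *Smad9* passed the filter through their BMP7 libraries. They had 4, 1 and 0 and 6, 7 and 2 fragments in Ctrl replicates 1, 2 and 3, so their folds rest on few Ctrl fragments. The rise of *Nog* was smaller than those of the 6 largest in log2 fold change, and the differences between genes were not tested.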

How the data were processed

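Poly(A) RNA of 6 HC11 libraries was sequenced as read pairs. The authors aligned the reads with subjunc of Subread 2.0.3 (the methods name mm10) and counted fragments with featureCounts (2.0.1 in the file header) on exons grouped by gene name in an mm39 annotation, without strand and without options for fragments that map to several places or genes. The deposited counts are raw, with each gene's summed exon length. Strand was not used, so a gene and its antisense partner cannot be told apart. Totals were 19858701 to 20327200 in Ctrl and 14607938 to 23748970 with BMP7. Intervals from fragments cover counting error only.

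Counts were analysed in R 4.3.3 with edgeR 4.0.16 (expression filter, TMM scaling, quasi-likelihood test, Benjamini-Hochberg adjustment over 15733 genes). Standard errors were derived from each log2 fold change and its F statistic. Exact permutation tests used log2 values with a prior count of 2. DESeq2 1.42.0 was an alternative. Tests were tried on simulated data. Named are all members, the called genes of the other lists (at most 6 a list) and *Inhba*; *Neo1*, *Bmp1*, *Chrdl1*, *Bmp7*, *Gdf11*, *Bmpr1a* (in a ratio with *Bambi*) and the single cell type markers fall outside that rule and were chosen with their values known. The members and lists were chosen with earlier results of these data known. Copies were searched with BLAST 2.17.0 in GENCODE vM21 transcripts.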

Additional observations from a re-analysis of the deposited data

How the results depend on the processing

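Of the 10 genes, 3 were called higher and 1 lower. With a fold change of 1.5, with glmTreat at a fold change of 1.2 (a test against that fold itself) and with library totals alone, 1 was called higher, and the number was 1 to 3 with 1 library left out (1 without BMP7 replicate 3). None was called lower with glmTreat (0) or without both BMP7 replicates 3 and 4 (0), and leaving out 1 library gave 0 or 1 (0 without Ctrl replicate 2 and without BMP7 replicate 3). With DESeq2, the same 4 genes were called. *Nog* could not be fitted when every library had to hold 10 counts or more and stayed past the thresholds in all 15 other alternatives. *Bambi* was called in 7 of 16, and *Rgma* and *Chrd* each in 12 of 16. The sign turned for *Rgmb* with library totals alone (-0.0034), without BMP7 replicate 3 (-0.046) and without both BMP7 replicates 3 and 4 (-0.045; with 1 library left out, -0.046 to 0.13), and for *Twsg1* in the last (0.016), all within their error. Of the 44 genes tested on the other lists, 23 were higher (18 to 27 over the alternatives) and 2 lower (1 with a fold change of 1.5). In the main fit 56.8% of them were called, beside 11.4% of all genes tested. The list of intracellular inhibitors and targets gave 16 of the 23 higher genes. Over all genes, 942 higher and 846 lower became 476 and 304 with a fold change of 1.5, 494 and 254 with glmTreat, and 718 and 1474 with library totals alone. The *Fst* to *Inhba* ratio kept its direction in 10 alternatives (-1.10 to -0.71). Among these, gene length and upper-quartile scaling cancel in the difference, so those alternatives could not have turned it. The one without both BMP7 replicates 3 and 4 was added after the data were seen, like the values of single genes of other lists without them. The cause of these shifts was not tested. No paired analysis was possible because the BMP7 columns are numbered 1, 3 and 4 and the labels 1, 2 and 3, so that a number does not show which sample a column is. Depth limits *Grem1*, *Nog*, *Fstl3* and *Chrd*.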
